A study of Homo sapiens with 6 samples.

Results

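Mitochondrial ribosomal proteins are the protein components of the ribosome that works inside mitochondria. The genes described here are the 78 whose Ensembl identifier maps to a protein-coding symbol beginning with MRPL or MRPS and a digit, out of 60564 rows with such an identifier. By symbol, 49 (MRPL) belong to the large subunit and 29 (MRPS) to the small subunit. All 78 passed the filter on low counts. Another 86 rows carry an MRPL or MRPS symbol but are not protein-coding, most of them processed pseudogenes, and were left out.

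RNA sequencing was carried out on HepG2, an established human hepatoma line, in 3 libraries of cells given formononetin and 3 control libraries. Formononetin is an isoflavone of legumes, and the protocol names a dose of 625 (unit written as μm) and 72 h. The treatment label of the control libraries is DMEM, the culture medium. No solvent and no culture time are given for these, so the solvent and the compound cannot be told apart. All cells were labelled wild type and grew in DMEM with fetal calf serum and antibiotics, and nothing in the labels says whether the replicates were separate cultures. The series sets treated against untreated cells to see which transcripts the compound alters, and here the question is put to the mitochondrial ribosome.

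The mitochondrial ribosome reads only the messenger RNAs of the mitochondrial genome, all of which encode subunits of the respiratory chain or of ATP synthase. Its ribosomal RNAs are transcribed in the organelle, but every one of its proteins is encoded in the nucleus, made on cytosolic ribosomes and imported. Many of the proteins have bacterial counterparts (MRPL2 and MRPL11, for instance), and others (MRPL38, MRPL39, MRPS26, MRPS35) do not. Hepatocytes are rich in mitochondria and rely on this ribosome for oxidative phosphorylation.

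Counts on named genes were 37465148 to 45682722 in formononetin libraries and 30848848 to 36243606 in control libraries. The 78 genes held 0.275, 0.263 and 0.258% of these counts in formononetin replicates 1 to 3, against 0.232, 0.235 and 0.229% in control replicates 1 to 3. All 10 hepatocyte markers examined were present, at 32.9 CPM (counts on a gene scaled to a common library size) or more in every library, but 8 of them fell and 1 rose (edgeR, adjusted p under 0.05). Of 8 markers of other cell types, PTPRC, COL3A1 and KRT5 had 0 counts in every library. The 8 summed to 105 to 112 CPM in formononetin libraries and 112 to 121 CPM in control libraries, most of it from EPCAM and PECAM1. CD68, a macrophage marker also found at low levels in other cells, had 5.26, 7.79 and 7.13 CPM in formononetin libraries and 3.88, 3.77 and 2.39 CPM in control libraries. It rose by 1.01 ± 0.23 on the log2 scale (SE, edgeR adjusted p = 0.0204), but was at -0.16 with overlapping genes summed, and the call was lost without formononetin replicate 2 or replicate 3. EPCAM, an epithelial marker, fell by 0.22 ± 0.06 (SE, edgeR adjusted p = 0.0306). The part of these markers in the results below was not tested. In bulk RNA a change in the make-up of the culture and a change in RNA per cell cannot be told apart.

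Of the 78 genes, 21 rose with formononetin, 0 fell and 57 did not pass the test at an adjusted p under 0.05 (edgeR quasi-likelihood test, Benjamini-Hochberg adjustment over 22230 genes). That is 26.9% of them, where 12.0% of all genes tested rose and 8.71% fell. Among the 10094 tested genes within the same range of expression, 19.1% rose and 10.5% fell. The log2 fold change was above 0 for 61 of the 78 genes, with a median of 0.16, against -0.01 over all genes tested and 0.05 over those of the same expression range. The 21 rises were small, at 1.15-fold to 1.66-fold. At an unadjusted p under 0.05, 32 genes were higher and 2 lower in edgeR, and DESeq2 called 21 rises and 0 falls.

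The count depends on single libraries and on the scaling. It was 13 without formononetin replicate 1, without formononetin replicate 2 or without control replicate 1, and 10 without formononetin replicate 3. Upper quartile scaling gave 12 rises and 2 falls, while moving the calls over all genes to 1813 raised and 2737 lowered, against 2659 raised and 1937 lowered as reported. Under that scaling the median of all genes was -0.09 and that of the 78 genes 0.08, a gap of 0.17 as in the reported values. A change of scaling moves all genes by nearly the same amount, so this gap could not have differed and does not bear on stability. Calls for 9 genes were kept in all 16 alternatives, namely MRPL2, MRPL11, MRPL14, MRPL18, MRPL38, MRPL39, MRPS10, MRPS26 and MRPS35.

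**Figure D1:**
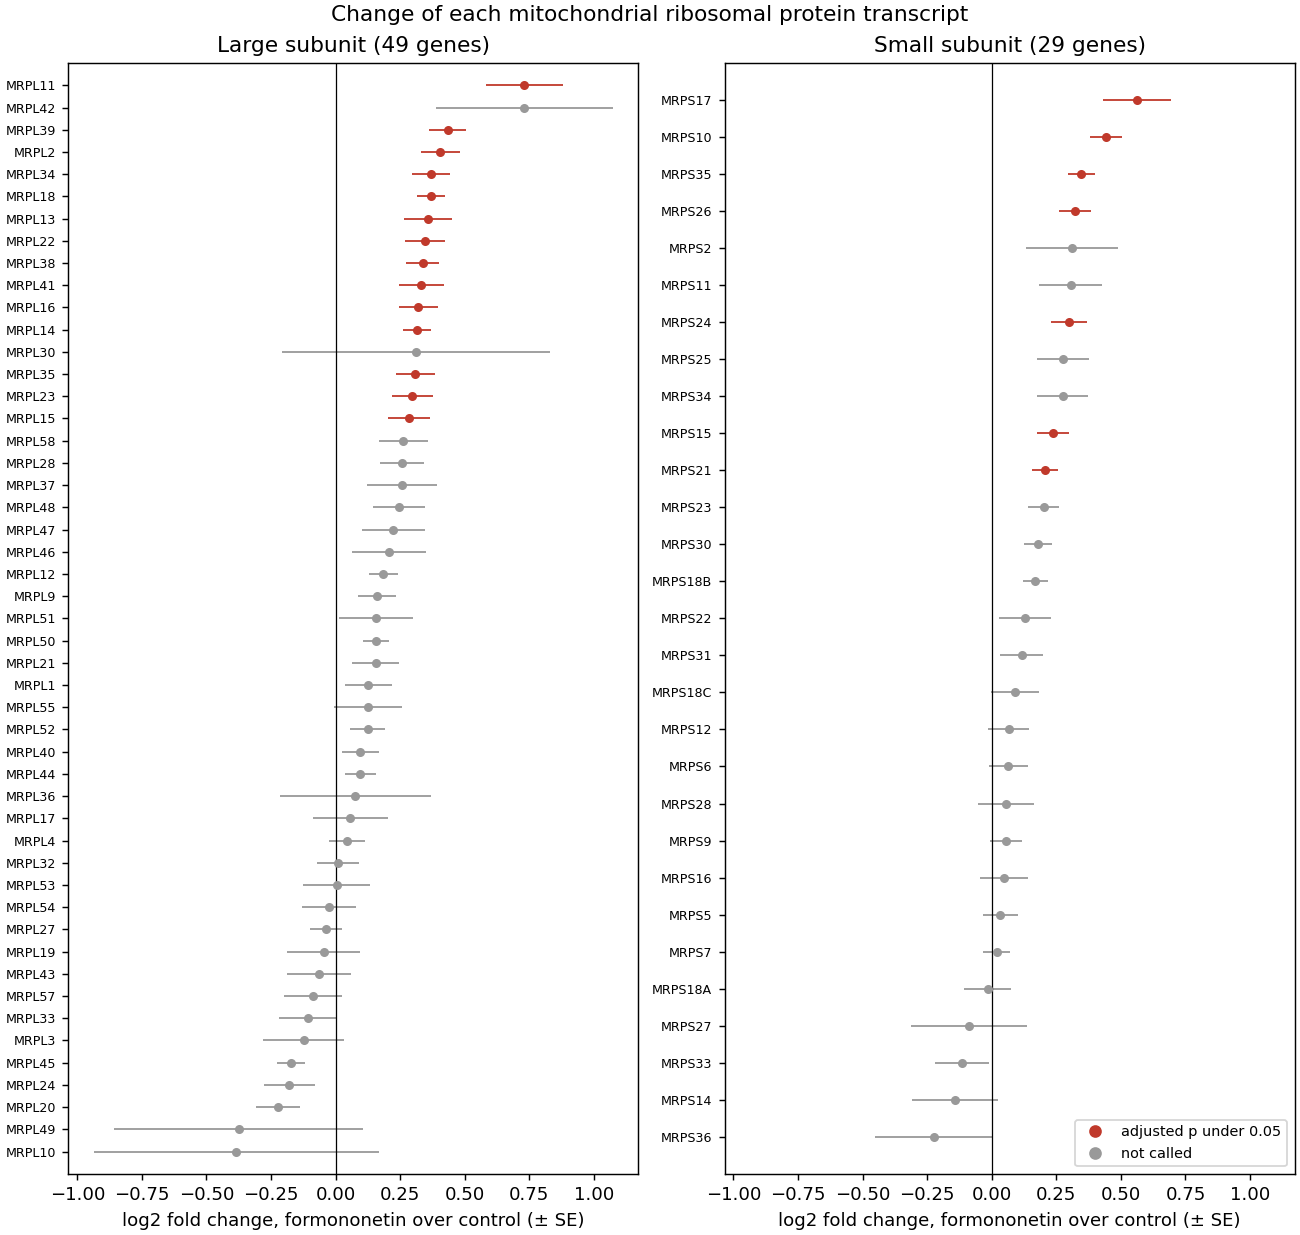
Log2 fold change (formononetin over control, ± SE of the edgeR fit, n = 3 each) of the 49 large-subunit and 29 small-subunit genes, ordered by size. The 21 red points have an adjusted p under 0.05 and all lie to the right of 0, and the 5 genes with the widest bars in the large subunit are MRPL10, MRPL30, MRPL36, MRPL42 and MRPL49.

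The large and the small subunit had similar values. In the large subunit 14 of 49 genes rose (28.6%), with a median log2 fold change of 0.16, and in the small subunit 7 of 29 (24.1%), with a median of 0.13. Of all genes tested 12.0% rose, and of those within the expression range of the 78 genes 19.1%, which is near the small-subunit share. In the small subunit MRPS17 and MRPS24 lost the call with overlapping genes summed, while MRPS6 and MRPS18B gained it. Values were above 0 for 37 of 49 and 24 of 29 genes. The 3 formononetin libraries lay above all 3 control libraries for 35 of the 78 genes and below all of them for 2. Over all genes tested these shares were 20.8% and 18.7%. By subunit, 23 large-subunit and 12 small-subunit genes lay entirely above.

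Summed over the large subunit, CPM were 1666, 1535 and 1596 in formononetin libraries and 1475, 1441 and 1416 in control libraries, with means of 1599 ± 65.3 with formononetin and 1444 ± 29.4 in control (SD, n = 3 each). For the small subunit the sums were 995, 1049 and 1007 CPM in formononetin libraries and 883, 939.9 and 921 CPM in control libraries, with means of 1017 ± 28.4 with formononetin and 915 ± 28.8 in control (SD, n = 3 each). Both sums were thus higher in every formononetin library than in any control library. The ratio of the large-subunit to the small-subunit sum was 1.67, 1.46 and 1.58 in formononetin libraries and 1.67, 1.53 and 1.54 in control libraries, so these groups overlap. Its mean was 1.57 ± 0.106 with formononetin and 1.58 ± 0.0775 in control (SD, n = 3 each). Structures place MRPS18A and MRPS30 in the large subunit, and moving them there left the counts at 14 and 7 and both medians as they were.

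**Figure D2:**
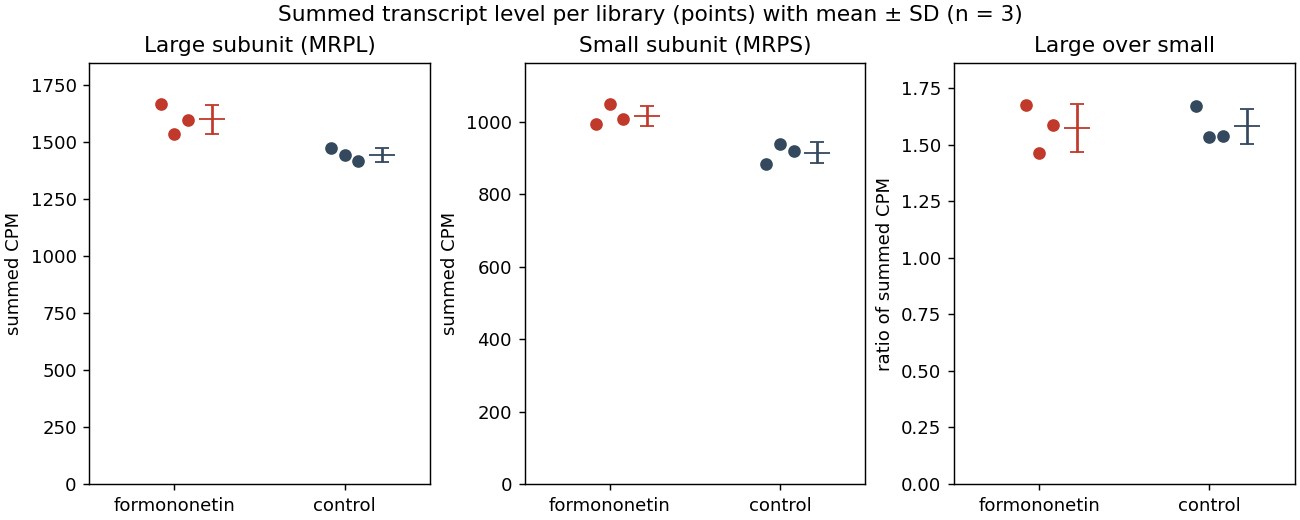
Summed CPM of large-subunit genes (left), of small-subunit genes (middle) and their ratio (right) in each library, with mean ± SD of 3 libraries; axes start at 0. Both sums are higher in all 3 formononetin libraries, and the ratios of the groups overlap.

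The shift was of like size in each treated library. The median over the 78 genes of the log2 deviation from the control mean was 0.14, 0.18 and 0.17 in formononetin replicates 1 to 3. Over all genes tested it was -0.00, 0.00 and -0.01 in the same libraries. In control replicates 1 to 3 it was -0.00, 0.01 and 0.01 for the 78 genes. These control values are held near 0 because the control mean is the reference. For the large subunit the medians were 0.17, 0.18 and 0.17 in formononetin replicates. For the small subunit they were 0.11, 0.18 and 0.18.

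Rises in the large subunit were led by MRPL11, a protein at the base of the stalk where translation factors that use GTP dock (chr11:66435075-66466738, minus strand, GRCh38). Its transcript stood at 36.5, 52.6 and 46.1 CPM in formononetin libraries and 29.6, 23.0 and 28.9 CPM in control libraries. All treated values were above all control values, though they spanned a wide range among themselves. The log2 fold change was 0.73 ± 0.15 (SE, edgeR adjusted p = 0.0140, n = 3 each). MRPL39, a large-subunit protein without a bacterial counterpart, had 21.4, 20.0 and 20.4 CPM in formononetin libraries and 15.6, 14.6 and 15.5 CPM in control libraries. The groups are well apart and each is tight, and the log2 fold change was 0.43 ± 0.07 (SE, edgeR adjusted p = 0.00593).

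MRPL2, whose bacterial counterpart lies beside the peptidyl transferase centre, had 49.1, 48.1 and 53.4 CPM in formononetin libraries and 37.5, 41.0 and 35.2 CPM in control libraries. It rose by 0.41 ± 0.08 on the log2 scale (SE, edgeR adjusted p = 0.00977). MRPL34, the counterpart of bacterial L34, had 21.0, 20.6 and 21.5 CPM in formononetin libraries and 16.6, 15.2 and 17.0 CPM in control libraries. Its rise of 0.37 ± 0.07 had an adjusted p of 0.0126 in edgeR, and 0.0516 without formononetin replicate 3. For MRPL34 the lowest treated library was still well above the highest control library.

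MRPL18, related to the bacterial protein that binds 5S ribosomal RNA, had 54.8, 53.0 and 56.9 CPM in formononetin libraries and 43.3, 41.5 and 42.8 CPM in control libraries. It rose by 0.37 ± 0.05 on the log2 scale (SE, edgeR adjusted p = 0.00348), the lowest adjusted p in the large subunit. MRPL13, the counterpart of bacterial L13, had 22.4, 20.6 and 23.8 CPM in formononetin libraries and 17.9, 18.5 and 15.7 CPM in control libraries. Its rise of 0.36 ± 0.09 (SE, edgeR adjusted p = 0.0332) was lost in 7 of the 16 alternatives. The treated and the control libraries of both genes did not overlap.

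The other 8 large-subunit genes that rose had log2 fold changes of 0.28 to 0.34. MRPL22 and MRPL23, counterparts of bacterial proteins at the exit tunnel of the nascent chain, changed by 0.34 ± 0.08 and 0.30 ± 0.08 (SE). MRPL38, a protein of the central protuberance, rose by 0.34 ± 0.06, and MRPL14, which lies at the interface with the small subunit, by 0.32 ± 0.06. MRPL15, MRPL16, MRPL35 and MRPL41 made up the rest. Among these 8, only MRPL14 and MRPL38 kept the call in all 16 alternatives. Exons of MRPL2, MRPL11, MRPL23, MRPL34 and MRPL38 face an antisense gene, and since the strand option of the counting is not known, reads of the antisense partner cannot be told apart from theirs.

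**Figure D3:**
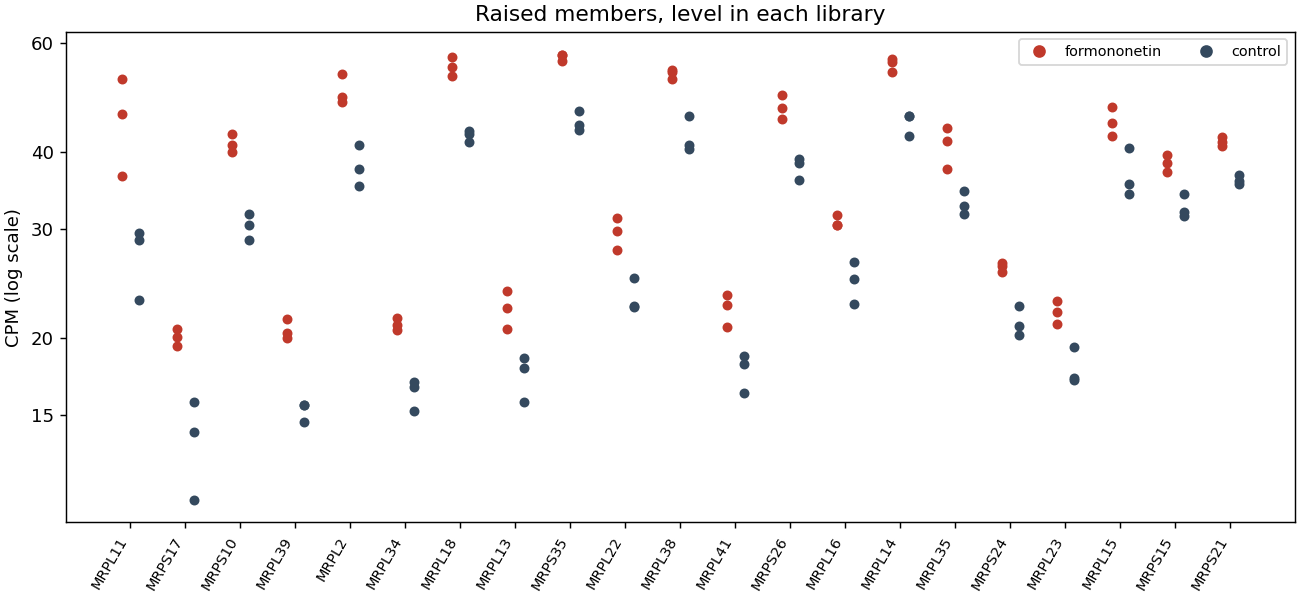
CPM (log scale) of the 21 genes that rose, in each of the 3 formononetin and 3 control libraries, ordered by log2 fold change. Every treated point of a gene lies above every control point of that gene, and MRPL11 and MRPS17 show the widest scatter.

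In the small subunit the largest difference was that of MRPS17, the counterpart of bacterial S17. It had 20.7, 19.4 and 20.1 CPM in formononetin libraries and 14.1, 10.9 and 15.7 CPM in control libraries. The log2 fold change was 0.56 ± 0.13 (SE, edgeR adjusted p = 0.0231). Exons of MRPS17 overlap those of NIPSNAP2 on the same strand, and with the overlapping genes summed the value was 0.18 with an adjusted p of 0.340, so this call is uncertain.

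MRPS10, a protein of the small-subunit head (chr6:42206801-42217865, minus strand, GRCh38), had 41.0, 40.0 and 42.7 CPM in formononetin libraries and 30.4, 31.7 and 28.9 CPM in control libraries. It rose by 0.44 ± 0.06 on the log2 scale (SE), with the lowest adjusted p of the 78 genes, 0.00306 in edgeR. MRPS35, a small-subunit protein without a bacterial counterpart, had 56.1, 57.4 and 57.5 CPM in formononetin libraries and 43.5, 44.3 and 46.7 CPM in control libraries. Its log2 fold change was 0.35 ± 0.05 (SE, edgeR adjusted p = 0.00406). For both genes the replicates of a group lay close together and the groups far apart.

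MRPS26, likewise absent from bacteria, had 47.0, 45.2 and 49.4 CPM in formononetin libraries and 38.4, 38.9 and 36.0 CPM in control libraries, a log2 fold change of 0.32 ± 0.06 (SE, edgeR adjusted p = 0.0105). MRPS24, the counterpart of bacterial S3, which lies at the entry of the messenger RNA, had 26.2, 26.4 and 25.6 CPM in formononetin libraries and 22.5, 20.9 and 20.2 CPM in control libraries. Its difference of 0.30 ± 0.07 had an adjusted p of 0.0215 in edgeR. Its exons overlap those of the readthrough gene URGCP-MRPS24 on the same strand, and with the overlapping genes summed the value was 0.14 with an adjusted p of 0.374, so this call is also uncertain. MRPS15, the counterpart of bacterial S15, had 37.2, 38.4 and 39.6 CPM in formononetin libraries and 31.5, 34.2 and 32.0 CPM in control libraries. It rose by 0.24 ± 0.06 (SE, edgeR adjusted p = 0.0320), and MRPS21 by 0.21 ± 0.05 (SE, edgeR adjusted p = 0.0304), each losing the call in 7 or 8 of the 16 alternatives.

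Several members with a known special role did not pass the test. MRPL12, the protein of the flexible stalk that recruits elongation factors, had 61.6, 58.4 and 64.4 CPM in formononetin libraries and 54.6, 53.0 and 54.7 CPM in control libraries. The treated libraries were all higher, with a log2 fold change of 0.18 ± 0.05 (SE, edgeR adjusted p = 0.0521), and 0.32 with an adjusted p of 0.00853 when counts of the overlapping gene ENSG00000262660 were added. MRPL58, a peptidyl-tRNA hydrolase that rescues stalled ribosomes, had 14.3, 15.9 and 16.5 CPM in formononetin libraries and 11.9, 13.4 and 13.7 CPM in control libraries. Its groups also did not overlap, at 0.26 ± 0.09 (SE, edgeR adjusted p = 0.0960).

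The 3 paralogues MRPS18A, MRPS18B and MRPS18C, all related to bacterial S18, differed in their values, although the differences between them were not tested. MRPS18B had 72.2, 75.5 and 77.1 CPM in formononetin libraries and 64.7, 67.8 and 67.5 CPM in control libraries (log2 fold change 0.17 ± 0.05, edgeR adjusted p = 0.0506). MRPS18A had 22.6, 27.6 and 25.6 CPM in formononetin libraries and 24.5, 27.3 and 24.9 CPM in control libraries, at -0.02 ± 0.09. MRPS18C had 22.9, 19.9 and 24.0 CPM in formononetin libraries and 21.2, 22.1 and 19.4 CPM in control libraries, at 0.09 ± 0.09. The groups overlapped for MRPS18A and MRPS18C and were apart for MRPS18B.

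MRPS30, which sits in the large subunit despite its symbol, had 42.5, 41.2 and 44.0 CPM in formononetin libraries and 37.3, 38.2 and 37.3 CPM in control libraries (0.18 ± 0.05, edgeR adjusted p = 0.0554). MRPS12, a protein of the decoding centre, had 17.1, 18.9 and 17.9 CPM in formononetin libraries and 17.9, 17.5 and 16.0 CPM in control libraries, at 0.07 ± 0.08 on the log2 scale. MRPS7, a protein of the head, had 46.6, 48.9 and 47.3 CPM in formononetin libraries and 45.5, 47.2 and 48.1 CPM in control libraries, at 0.02 ± 0.05. The treated values were all above the control values for MRPS30 but not for MRPS12 or MRPS7.

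Only MRPL45 and MRPL20 had every formononetin library below every control library. MRPL45, which helps to hold the ribosome at the inner membrane, had 111, 109 and 106 CPM in formononetin libraries and 115, 129.9 and 122 CPM in control libraries (log2 fold change -0.17 ± 0.05, edgeR adjusted p = 0.0619). MRPL20 had 16.4, 18.6 and 17.0 CPM in formononetin libraries and 21.8, 19.4 and 19.4 CPM in control libraries (-0.22 ± 0.09, edgeR adjusted p = 0.115). MRPL45 was called lowered with upper quartile scaling, with a filter of at least 1 CPM in 3 libraries and without control replicate 1, and MRPL20 with upper quartile scaling.

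The groups overlapped for 41 of the 78 genes, and a few of these varied widely between replicates. In 5 genes, all of the large subunit and none of them called, replicates of 1 group were over 2-fold apart, whereas in the other 73 the median of the widest within-group ratio was 1.16. MRPL10, which anchors MRPL12 to the ribosome, had 79.6, 21.6 and 33.1 CPM in formononetin libraries and 81.6, 68.3 and 25.4 CPM in control libraries. MRPL49 had 45.5, 18.7 and 14.6 CPM in formononetin libraries and 45.9, 38.5 and 17.8 CPM in control libraries. In both genes formononetin replicate 1 and control replicates 1 and 2 were high and the other 3 libraries low.

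MRPL30, the counterpart of bacterial L30, had 56.0, 20.0 and 19.2 CPM in formononetin libraries and 19.3, 42.2 and 15.0 CPM in control libraries, so 1 library of each group stood apart. MRPL36 had 17.8, 8.52 and 20.3 CPM in formononetin libraries and 15.1, 12.7 and 16.5 CPM in control libraries. MRPL42 had 50.2, 31.6 and 48.8 CPM in formononetin libraries and 17.6, 19.4 and 41.7 CPM in control libraries, with a log2 fold change of 0.73 ± 0.34 (SE, edgeR adjusted p = 0.183) that reached 1.24 with an adjusted p of 0.0148 without control replicate 3. The median log2 fold change of the other 73 genes was 0.16.

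**Figure D4:**
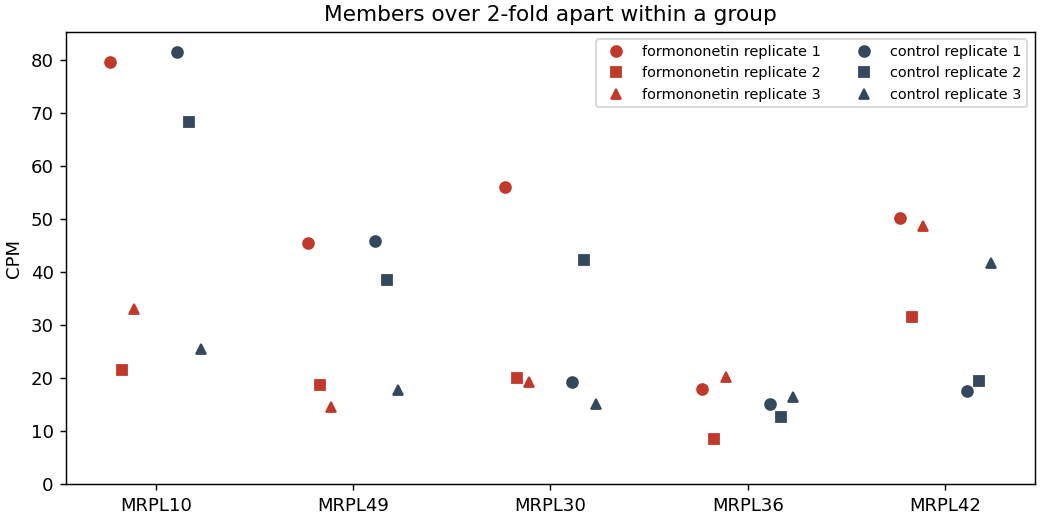
CPM in each library of the 5 genes whose replicates were over 2-fold apart within a group, with a marker shape for each replicate number. In MRPL10 and MRPL49 formononetin replicate 1 and control replicates 1 and 2 are the high libraries.

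Levels of the 78 transcripts spanned a wide range. Per kilobase of merged exon length, the median was 9.72 CPM per kb over all libraries, at 9.82 for the large and 9.04 for the small subunit. MRPL45 was highest at 63.7 ± 1.47 CPM per kb with formononetin and 71.8 ± 4.24 in control (SD, n = 3 each). MRPL12 followed at 59.8 ± 2.90 CPM per kb with formononetin and 52.6 ± 0.920 in control. MRPL14 had 57.9 ± 1.44 CPM per kb with formononetin and 46.5 ± 1.98 in control. With formononetin MRPL12 and MRPL14 differed by less than their spread.

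The lowest per length were MRPS33, at 1.91 ± 0.135 with formononetin and 2.07 ± 0.174 CPM per kb in control, and MRPL42, at 2.65 ± 0.632 with formononetin and 1.60 ± 0.820 in control. MRPL53 came next at 3.62 ± 0.367 with formononetin and 3.61 ± 0.296 CPM per kb in control, within the spread of MRPL55 at 3.77 ± 0.363 with formononetin and 3.46 ± 0.416 in control. Merged exons of MRPL42 span 16393 bases, so its value per kb depends on which of them are transcribed. In CPM, MRPS33 had 9.35, 10.1 and 10.8 in formononetin libraries and 9.84, 11.4 and 11.5 in control libraries, and MRPL53 had 4.74, 5.40 and 4.44 in formononetin libraries and 5.20, 4.41 and 4.93 in control libraries. Neither passed the test. Among the 39 genes with the higher mean log2 CPM 14 rose. Among the other 39, whose median SE was 0.09 against 0.07, 7 rose. Of all genes tested 12.0% rose, and of those within the expression range of the mitochondrial ribosomal protein genes 19.1%. The share in the lower set lay between these values, and that in the higher set above both.

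Genes with and without a bacterial counterpart had the same median, though more of the former were called. Of 47 genes with one 16 rose, of 31 without one 5 rose, and the median log2 fold change was 0.16 in each. This division was made after the values had been seen. Of all genes tested 12.0% rose, and of those within the expression range of the mitochondrial ribosomal protein genes 19.1%. The share of genes without a counterpart lay between these values, and that of genes with a counterpart above both. The difference between the sets was not tested. MRPS36, which is now counted as a subunit of the 2-oxoglutarate dehydrogenase complex rather than of the ribosome, had 7.54, 8.73 and 5.21 CPM in formononetin libraries and 10.0, 6.45 and 8.64 CPM in control libraries. These groups overlapped, at a log2 fold change of -0.22 ± 0.23.

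Proteins of the same ribosome that carry other names were also measured, and 0 of 5 passed the test in edgeR, with a median log2 fold change of 0.05. DAP3, a GTP-binding protein of the small subunit, had 44.3, 54.5 and 42.9 CPM in formononetin libraries and 45.7, 51.6 and 57.5 CPM in control libraries (-0.13 ± 0.12). PTCD3, a pentatricopeptide repeat protein of the small subunit, had 177, 174 and 176 CPM in formononetin libraries and 169.6, 172 and 167 CPM in control libraries (0.05 ± 0.04). The groups of PTCD3 did not overlap but differed by little.

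CHCHD1, of the small subunit, had 6.33, 7.39 and 7.68 CPM in formononetin libraries and 7.34, 6.26 and 5.81 CPM in control libraries (0.14 ± 0.13). AURKAIP1, of the small subunit, had 22.8, 20.5 and 22.8 CPM in formononetin libraries and 20.6, 22.7 and 19.1 CPM in control libraries (0.08 ± 0.09). GADD45GIP1, of the large subunit, had 6.55, 7.84 and 8.83 CPM in formononetin libraries and 8.59, 8.61 and 6.96 CPM in control libraries (-0.06 ± 0.15). All 3 overlapped between groups.

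Factors that assist mitochondrial translation changed in both directions, with 5 of 17 raised, 2 lowered and a median of 0.14. TUFM, the mitochondrial elongation factor Tu, had 315, 319 and 336 CPM in formononetin libraries and 258, 250.4 and 257 CPM in control libraries, and rose by 0.34 ± 0.04 (SE, edgeR adjusted p = 0.00154). GUF1, a relative of the bacterial elongation factor LepA, rose by 0.34 ± 0.06, and GFM2, which helps to split the ribosome after termination, by 0.31 ± 0.08, a call that 5 of the 16 alternatives did not keep. MTRFR, a factor that rescues stalled ribosomes, fell by 0.41 ± 0.07 (edgeR adjusted p = 0.00809), and OXA1L, which inserts newly made proteins into the inner membrane, by 0.20 ± 0.05 (edgeR adjusted p = 0.0372), the call being lost in 9 of the 16 alternatives. LRPPRC, which stabilises mitochondrial messenger RNAs, had 596, 578 and 561 CPM in formononetin libraries and 594, 626 and 615 CPM in control libraries and did not pass (-0.08 ± 0.04).

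Of 29 factors that assemble or modify the mitochondrial ribosome 2 rose and 1 fell, while 25 had values above 0 (median 0.09). By comparison, 12.0% of all genes tested rose and 8.71% fell, so these calls were not more frequent than elsewhere. METTL17, needed to assemble the small subunit, had 51.8, 52.9 and 53.9 CPM in formononetin libraries and 39.0, 40.0 and 42.9 CPM in control libraries, a rise of 0.38 ± 0.06 (SE, edgeR adjusted p = 0.00423). DHX30, an RNA helicase of mitochondrial RNA granules, rose by 0.18 ± 0.05 (edgeR adjusted p = 0.0373), a call lost in 9 of the 16 alternatives. NOA1, a GTPase of assembly, fell by 0.29 ± 0.06 (edgeR adjusted p = 0.0120).

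Among 18 genes that copy, transcribe or process mitochondrial DNA and RNA, 4 rose and 0 fell in edgeR (median 0.16). TFAM, which packages mitochondrial DNA and starts its transcription, had 59.8, 62.0 and 65.2 CPM in formononetin libraries and 43.0, 49.8 and 45.1 CPM in control libraries, a rise of 0.44 ± 0.07 (SE, edgeR adjusted p = 0.00505). TRMT10C and PRORP, 2 of the subunits of mitochondrial ribonuclease P, rose by 0.42 ± 0.08 and 0.32 ± 0.06. POLRMT, the mitochondrial RNA polymerase, had 73.7, 72.3 and 69.0 CPM in formononetin libraries and 75.4, 69.5 and 76.6 CPM in control libraries and did not pass (-0.04 ± 0.06).

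Of 10 regulators of nuclear genes for mitochondria, 1 rose and 1 fell, where 12.0% of all genes tested rose and 8.71% fell. PPARGC1B, a coactivator, had 15.3, 16.2 and 14.7 CPM in formononetin libraries and 6.55, 7.96 and 8.17 CPM in control libraries, a log2 fold change of 1.02 ± 0.11 (SE, edgeR adjusted p = 0.00109). Its relative PPARGC1A had 117, 116 and 118 CPM in formononetin libraries and 127, 140.3 and 145 CPM in control libraries (-0.23 ± 0.06, edgeR adjusted p = 0.0265), and 8 of the 16 alternatives lost this call. The transcription factors NRF1 (0.15 ± 0.09), GABPA (0.07 ± 0.08), ESRRA (-0.05 ± 0.07) and MYC (0.33 ± 0.19) did not pass.

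Transcripts of the mitochondrial genome, which this ribosome translates, gave mixed values. Of 13 protein-coding ones MT-ND6, the one read from the light strand, rose by 0.35 ± 0.06 (SE, edgeR adjusted p = 0.00791). MT-CO1 had 10203, 11789.8 and 12387 CPM in formononetin libraries and 16499.8, 16939 and 16948 CPM in control libraries, a fall of 0.55 ± 0.07 on the log2 scale (edgeR adjusted p = 0.00189). MT-CYB fell by 0.39 ± 0.09 (edgeR adjusted p = 0.0189), a call that 4 of the 16 alternatives lost. The 15 mitochondrially encoded genes together took 27183 to 35926 CPM in formononetin libraries and 38454 to 39543 CPM in control libraries. Most of the difference in mean sum, 31724 CPM with formononetin and 38928 in control, lay in MT-CO1. Its means were 11460 CPM with formononetin and 16796 in control. The median log2 fold change of the 13 tested was -0.05, with 4 values above 0, so the sum does not describe a common fall. The ribosomal RNAs of this ribosome, MT-RNR1 and MT-RNR2, held at most 2 counts in any library and were not tested.

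Transcripts of cytosolic ribosomal proteins were mostly lower with formononetin. Of 79 such genes 2 rose and 42 fell. Over all genes tested 12.0% rose and 8.71% fell. The median of the 79 on the log2 scale was -0.20, and 71 values lay below 0, as did 11409 of all 22230 genes tested. The summed level of the 79 was 32576 ± 503 CPM in formononetin libraries and 36765 ± 767 CPM in control libraries (SD, n = 3 each). The 78 mitochondrial ones summed to 2616 ± 39.7 CPM with formononetin and 2359 ± 21.9 CPM in control. The difference between these lists was not tested.

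**Figure D5:**
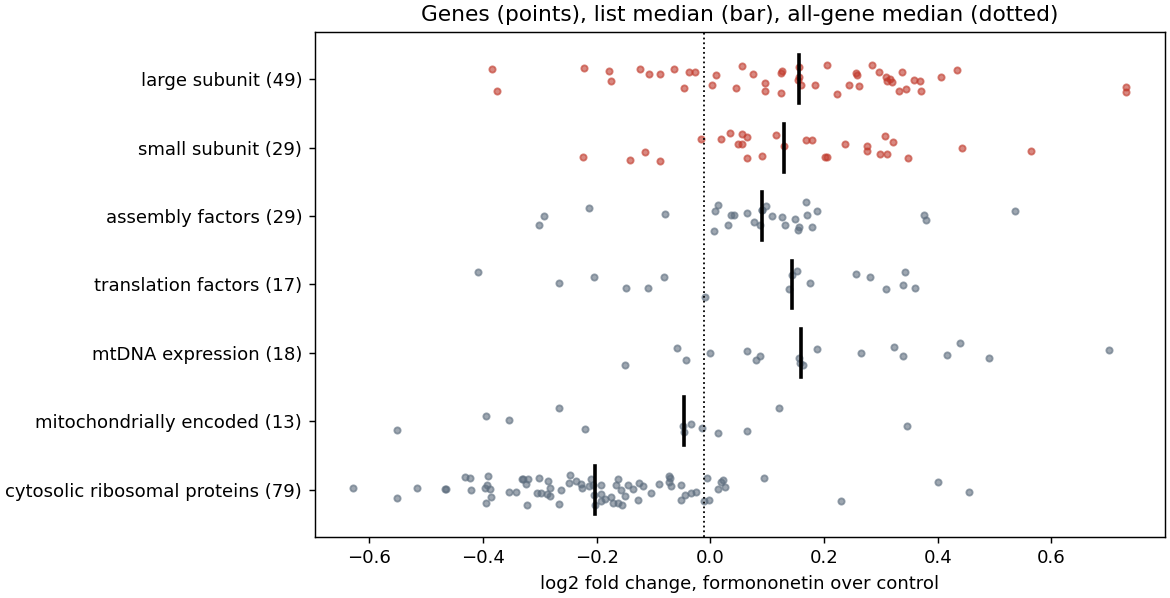
Log2 fold change (formononetin over control) of each gene in 7 lists, with the list median as a bar and the median over all tested genes as a dotted line. The medians are 0.16 for the large subunit, 0.13 for the small subunit and -0.20 for cytosolic ribosomal proteins.

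Promoters were searched for short motifs. RefSeq promoters (GRCh38.p14, 250 bases before to 50 after the start, 300 in all) were found for 69 of them and searched on both strands for 3 motifs, each counted on its own whether or not it overlapped another. The ETS-type motif CCGGAAG, bound by factors such as GABPA, was in 28 (40.6%), against 18.3% of 10880 tested protein-coding genes and 10.6% of all 27305 promoters in the RefSeq table. The YY1-type motif AANATGGCG was in 18 (26.1%), against 6.48% and 3.29%. The NRF1-type motif, GCGCA and GCGC with any 1 base between them, was in 6 (8.70%), against 10.8% and 6.05%. None of the 3 motifs was in 24 of the 69 promoters. At least 1 was in 65.2%, against 31.2% of the tested protein-coding genes and 17.6% of all promoters. A match to these letters does not show that a factor binds there.

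The motifs were counted separately in raised genes and in those not called, with no test. CCGGAAG was in 5 of 16 raised genes with a promoter entry (31.2%) and in 43.4% of the 53 not called, and AANATGGCG in 4 of 16 raised genes (25.0%) and in 26.4% of those not called. The NRF1-type motif was in 0 of 16 raised genes and in 6 of the 53 not called (11.3%). At least 1 of the 3 motifs was in 7 of 16 raised genes (43.8%) and in 71.7% of those not called. Both shares were above the 31.2% of the 10880 tested protein-coding genes. By subunit, CCGGAAG was in 40.5% of large-subunit and 40.7% of small-subunit promoters, and AANATGGCG in 26.2% and 25.9%. The 250 bases before the start are shown for MRPS10, the gene with the lowest adjusted p, and for MRPS18A and MRPL20, which did not rise, with CCGGAAG or its reverse complement in capitals. They are the RefSeq sequences of chr6:42217862-42218111, chr6:43687792-43688041 and chr1:1407294-1407543, all on the minus strand of GRCh38.p14 and written 5′ to 3′.
MRPS10: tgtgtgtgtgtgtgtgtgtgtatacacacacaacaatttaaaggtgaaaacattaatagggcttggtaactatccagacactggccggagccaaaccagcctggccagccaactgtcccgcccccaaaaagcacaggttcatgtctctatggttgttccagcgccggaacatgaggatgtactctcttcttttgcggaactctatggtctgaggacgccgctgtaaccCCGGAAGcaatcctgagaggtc
MRPS18A: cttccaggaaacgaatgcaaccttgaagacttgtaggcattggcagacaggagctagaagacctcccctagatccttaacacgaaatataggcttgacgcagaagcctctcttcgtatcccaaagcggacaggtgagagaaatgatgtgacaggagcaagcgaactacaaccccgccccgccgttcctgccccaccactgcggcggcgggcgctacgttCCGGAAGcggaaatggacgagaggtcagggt
MRPL20: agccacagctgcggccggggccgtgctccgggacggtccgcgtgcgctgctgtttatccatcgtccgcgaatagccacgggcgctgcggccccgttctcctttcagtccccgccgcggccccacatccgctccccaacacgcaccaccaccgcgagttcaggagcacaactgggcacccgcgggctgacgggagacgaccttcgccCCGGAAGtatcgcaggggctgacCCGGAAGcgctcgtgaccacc
All 3 hold the motif. Their log2 fold changes were 0.44, -0.02 and -0.22, and only MRPS10 was called. The 3 were picked by their values, and whether the motif goes with the change was not tested.

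Most YY1-type matches lay just after the start. Of 20 matches 18 read along the gene and 16 began after the start. Windows of 30 bases from RefSeq (GRCh38.p14) show the match, in capitals, in the 4 raised genes that hold it and in MRPS18A and MRPS18B, which were not called. They lie at chr5:154941093-154941122 (plus strand), chr17:75904859-75904888, chr6:42217833-42217862 and chr7:43869479-43869508 (minus strand), chr6:43687763-43687792 (minus strand) and chr6:30617853-30617882 (plus strand), in the order shown.
MRPL22: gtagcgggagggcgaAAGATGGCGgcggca
MRPL38: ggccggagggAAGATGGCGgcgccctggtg
MRPS10: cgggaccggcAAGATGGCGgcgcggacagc
MRPS24: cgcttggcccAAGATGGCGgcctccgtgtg
MRPS18A: taggtttttgAAGATGGCGgccctcaaggc
MRPS18B: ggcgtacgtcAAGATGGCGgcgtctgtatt
The matches begin 36, 7, 10, 20, 10 and 24 bases after the start in that order, and the same 9 letters, AAGATGGCG, stand in all 6 genes. Matches in some genes not shown differ in the third letter, with AACATGGCG in MRPL1 and MRPS9, for instance, and AAAATGGCG in MRPL32.

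Some of these genes start close to a neighbour on the other strand. Neighbours counted were protein-coding genes on the other strand that started within 1000 bases upstream of the start and ran away from it. Genes on the other strand whose start lay downstream, as TWNK does for MRPL43, were not counted. Such a neighbour was found for 17 of 78 (21.8%), against 9.39% of 13658 tested protein-coding genes. Of 16 such neighbours that could be tested 1 rose and 0 fell in edgeR, with a median log2 fold change of 0.15. Shares over all genes tested were 12.0% raised and 8.71% lowered. The one that rose was TCP1, a subunit of the cytosolic chaperonin, at 0.47 ± 0.08 (SE, edgeR adjusted p = 0.00741), which starts 63 bases from MRPL18. MRPL46 and MRPS11, 34 bases apart, are each other's neighbour, and had log2 fold changes of 0.20 ± 0.14 and 0.31 ± 0.12 with neither called. Only 2 of the 21 genes that rose had such a neighbour.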

How the data were processed

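A stranded mRNA kit was used on total RNA of HepG2 cells, per the labels' protocols. Raw counts per gene were deposited in 1 table, and the submitters' processing notes name GRCh38, STAR 2.5.3a and StringTie 1.3.1c without their roles. How reads were counted, with which annotation and strand option, is not given in the sources used here. Calls of overlapping genes are therefore uncertain. Of 62729 rows, 2165 are assembled loci without a gene name. These held 3.82 to 5.62% of counts and were left out.

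Symbols matched 60295 identifiers, and coordinates and gene types came from GENCODE 29. The genes and lists were chosen with earlier results of these data known. Genes were filtered with filterByExpr, scaled with TMM and tested with edgeR 4.0.16 in R 4.3.3. The quasi-likelihood F test was two-sided, with group as the only term. Benjamini-Hochberg adjustment was over all genes, with a threshold of 0.05. In simulated data this procedure called 20 of 50 genes raised by 0.5 on the log2 scale and 39 of 50 raised by 1. It called 50 of 50 raised by 2, 36 of 50 lowered by 1 and 11 of 21559 unchanged genes. Changes smaller than 0.5 were not simulated. CPM use TMM-scaled totals of named genes, and the SE is the absolute log2 fold change over the square root of F. Since separate cultures are not stated, the spread behind the p-values may be only technical. Counts of replicate pairs differed by more than sampling noise (chi-square 15.2 to 39.2 per degree of freedom within groups). Values in every library are given for up to 6 called genes per direction and subunit by size of change, the 3 highest and 3 lowest per length, the proteins with other names and members set by role. From the other lists come up to 3 called genes per direction (mean log2 CPM at least 3) and set regulators. MRPL20, MRPL45, MRPS36, the genes with wide replicate spread, TCP1 and the markers were named after their values were seen. Alternatives were DESeq2 1.42.0, other scalings and filters, the replicate number as a block, leaving out mitochondrial and the 10 largest genes, summing genes whose exons overlap by at least 50 bases on 1 strand, and leaving out each library.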

Additional observations from a re-analysis of the deposited data

Results flagged for a closer look

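A pseudogene row outside the 78 genes differed between the groups. MRPL57P3 had 20, 15 and 22 counts in formononetin libraries and 6, 9 and 7 counts in control libraries. Its log2 fold change was 1.06 ± 0.30 (SE, edgeR adjusted p = 0.0475, n = 3 each). It was singled out as a signal in a row that the comparisons of the 78 genes did not use, and its level was 0.393 to 0.496 CPM in formononetin libraries and 0.197 to 0.251 CPM in control libraries. The parent gene MRPL57 had a log2 fold change of -0.09 ± 0.11 and was not called. Whether reads of the pseudogene came from another copy was not tested.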

How the results depend on the processing

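The number of the 78 genes raised (21 as reported) was 12 with upper quartile scaling, 13 with the replicate block and 10 to 15 without single libraries. The number lowered (0) was 2 with upper quartile scaling, 1 with a filter of at least 1 CPM in 3 libraries, 1 with overlapping genes summed and 0 to 1 without single libraries. Their median (0.16) was 0.0768 with upper quartile scaling, 0.20 with library totals only, 0.18 with no low-count filter and 0.14 to 0.17 without single libraries. Its gap to the median of all genes was 0.14 to 0.20 over the settings. Scaling moves all genes nearly alike and so leaves this gap as it is, whichever scaling is used. For the large subunit 14 raised became 8 with upper quartile scaling, 9 with the replicate block and 7 to 10 without single libraries. Its lowered count (0) was 2 with upper quartile scaling, 1 with the 1 CPM filter, and 0 to 1 without single libraries. Its median was 0.077 with upper quartile scaling, 0.20 with library totals, 0.18 with no filter, 0.14 with the 1 CPM filter and 0.14 to 0.17 without single libraries. For the small subunit 7 raised became 4 with upper quartile scaling, 11 with library totals, 4 with the replicate block and 3 to 5 without single libraries, and 1 fell with overlapping genes summed. Its median was 0.0497 with upper quartile scaling, 0.17 with library totals, 0.17 with overlapping genes summed and 0.10 to 0.16 without single libraries. The ratio of the subunit sums differed by -0.0056, and by -0.06 to 0.05 without single libraries. With overlapping genes summed MRPS5 was at -0.20 (edgeR adjusted p = 0.0193), MRPL33 at 0.28 (adjusted p = 0.0149) and the marker CD68 at -0.16, against 0.03, -0.11 and 1.01. The counts of overlapping genes were joined there, and for the other changes the cause was not tested. Same-numbered libraries did not deviate together (correlations -0.036 to -0.002), so the block describes a number only. No other alternative turned a direction among called genes. At this depth the SE of single genes, 0.05 to 0.55 with a median of 0.09, limits which small changes pass.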

Other observations

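Of the 86 MRPL and MRPS rows that are not protein-coding, 14 had enough counts to test, and they held together 1.75 to 2.42% of the counts of the 78 genes. MRPS31P5, a pseudogene chosen after its values were seen, was lower with formononetin. It had 8.95, 9.82 and 10.6 CPM in formononetin libraries and 11.9, 14.4 and 13.3 CPM in control libraries (log2 fold change -0.43 ± 0.11, edgeR adjusted p = 0.0320), while MRPS31 itself was at 0.12 ± 0.08 and was not called.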
